A study of Oryza sativa with 24 samples.

Results

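PHR1, PHR2 and IPS1 are regulators of the rice response to phosphate (Pi) deficiency, and their transcripts were followed in roots and shoots of 2 rice genotypes. They are 3 of the 17906 genes paired here with a probe set, and each was read from 1 named probe set of the 57258 on the array that are not controls (for IPS1 that of locus Os03g05334). The study set Dular, a traditional genotype tolerant of low Pi, against PB1, a modern genotype sensitive to it, to ask how the tolerant genotype copes with low Pi. Seedlings of both were grown in nutrient solution with either 1 µM Pi (−Pi) or 320 µM Pi (+Pi) until 15 days of age, with no other treatment. The 8 groups were Dular root −Pi, Dular root +Pi, PB1 root −Pi, PB1 root +Pi, Dular shoot −Pi, Dular shoot +Pi, PB1 shoot −Pi and PB1 shoot +Pi, with 3 biological replicates each and 24 arrays in all. Seedlings were pooled within each RNA sample, so that the spread between replicates is one of pools and not of single plants.

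PHR1 and PHR2 are MYB-type transcription factors that bind a short palindromic element in the promoters of many Pi starvation genes. SPX proteins, whose own genes are among the targets, bind PHR proteins when Pi is plentiful and hold them back, so PHR activity is controlled to a large extent on the protein. IPS1 is a noncoding RNA and a classical marker of Pi starvation, and its Arabidopsis counterpart sequesters the microRNA miR399 through an imperfect match, which spares the mRNA of the ubiquitin-conjugating enzyme PHO2.

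The values are log2 signals from which each probe set's own median had been subtracted, so that 0 is the middle of the 24 values of a gene. A level can therefore be compared between groups for the same gene and not between genes, and whether a low value lay above the background of the array is unknown. Differences are on the log2 scale, with limma's standard error (SE) after the ± sign, and passed the test where the p-value adjusted by Benjamini-Hochberg over 57258 probe sets was 0.05 or less. A 2-fold change, a difference of 1 on this scale, was read beside it and not required. A bulk tissue does not tell less RNA per cell from fewer cells that hold it.

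The 24 array medians lay between -0.03 and 0.03. The labels call the source a whole seedling in 1 field and root or shoot in the title and description, and the tissue was taken from title and description. The study accepted shoot RNA at a lower integrity threshold than root RNA. The part of this in differences between the tissues was not tested. Summed levels of 7 root marker genes, of 8 listed, were 18.2 to 43.7 in root arrays and -17.7 to -10.1 in shoot arrays, and those of 6 shoot marker genes, of 8 listed, were -18.6 to -6.86 in root arrays and 3.77 to 7.47 in shoot arrays. Singly, by limma's test, all 7 root markers were higher in roots, except in Dular at −Pi, where NAS1, NAS2 and YSL15 did not pass. Of the 6 shoot markers 5 were lower in roots, or 4 in Dular at +Pi, and RBCS-A passed in no setting. Between root and shoot 29.5% to 56.3% of all probe sets passed, in either direction. The 3 PB1 shoot −Pi arrays scattered around their group mean by 0.319 to 0.542 (root mean square over probe sets), against 0.153 to 0.286 in the other arrays. The spiked control BioB was higher in Dular than in PB1 roots by 4.72 at −Pi and by 4.97 at +Pi, whereas BioC, BioD and Cre differed by -0.28 to 0.48 between the genotypes. The median of BioB was -4.78 at −Pi and -4.95 at +Pi in PB1 roots, against 0.04 and 0.36 in PB1 shoots. The part of these BioB gaps in differences of PB1 roots from Dular roots or from PB1 shoots was not tested.

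IPS1 rose under Pi deficiency in roots and shoots of both genotypes, and far more in roots. In Dular roots its level was 4.60, 4.50 and 4.35 at −Pi, against -5.40, -5.69 and -5.31 at +Pi. In PB1 roots it was 4.33, 4.38 and 4.11 at −Pi, against -6.00, -5.77 and -5.74 at +Pi. Arrays of a group lay within 0.4 of each other in roots, while −Pi and +Pi arrays were separated by more than 9 units. In Dular shoots the level was 2.75, 3.41 and 3.53 at −Pi, against -2.82, -2.11 and -2.48 at +Pi. In PB1 shoots it was 2.11, 2.50 and 2.15 at −Pi, against -2.67, -3.40 and -3.02 at +Pi. No −Pi array of either tissue overlapped a +Pi array, and SDs within root groups were 0.13 to 0.20 and within shoot groups 0.21 to 0.42.

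The differences between −Pi and +Pi passed the test in each of the 4 comparisons. IPS1 was 990.2-fold higher at −Pi in Dular roots (9.95 ± 0.21, adjusted p = 4.07e-15) and 1108-fold higher in PB1 roots (10.11 ± 0.21, adjusted p = 5.17e-15). It was 52.1-fold higher in Dular shoots (5.70 ± 0.21, adjusted p = 4.74e-11) and 39.0-fold higher in PB1 shoots (5.28 ± 0.21, adjusted p = 1.83e-10). In each genotype the shoot rise was the smaller. By limma's test, a rise was found for 8.75% of all probe sets in Dular roots and 5.57% in PB1 roots, and for 3.93% in Dular shoots and 1.77% in PB1 shoots. Ordered by their rise, IPS1 stood at place 1 of 57258 in Dular roots and in PB1 roots, at place 13 in Dular shoots and at place 12 in PB1 shoots. The folds assume that the +Pi arrays measured a level above background. They also depend on the scaling of the arrays, since after quantile normalization the log2 difference among roots was 8.83 in Dular and 9.72 in PB1, and among shoots 6.33 in Dular and 5.72 in PB1, with each call kept.

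**Figure D1:**
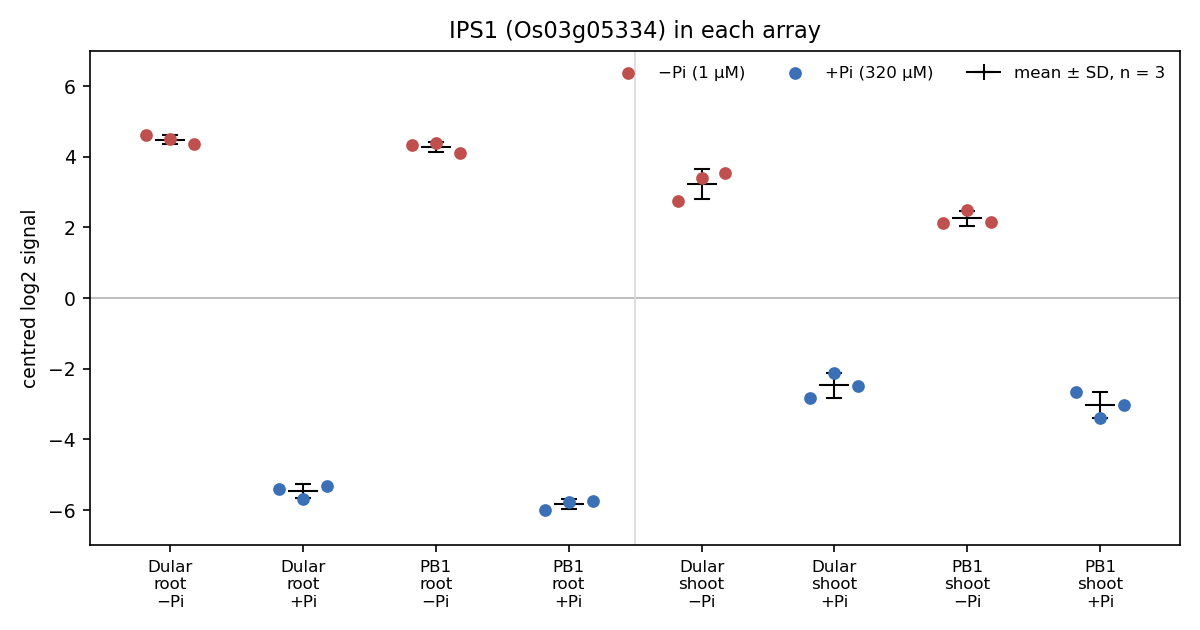
Centred log2 signal of IPS1 in each of the 24 arrays (points), with the mean and SD of each group of 3 (bars). The 12 −Pi arrays lie between 2.11 and 4.60 and the 12 +Pi arrays between -6.00 and -2.11, with root arrays at both extremes.

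The order of the tissues turned with the Pi supply. At −Pi, IPS1 averaged 4.48 ± 0.13 in Dular roots and 3.23 ± 0.42 in Dular shoots (SD, n = 3 each), and 4.28 ± 0.14 in PB1 roots and 2.26 ± 0.21 in PB1 shoots. At +Pi it averaged -5.47 ± 0.20 in Dular roots and -2.47 ± 0.35 in Dular shoots, and -5.84 ± 0.14 in PB1 roots and -3.03 ± 0.37 in PB1 shoots. Root and shoot arrays overlapped in none of these 4 settings, with roots above shoots at −Pi and below them at +Pi. The root minus shoot difference at −Pi was 1.25 ± 0.21 in Dular (2.38-fold, adjusted p = 0.000126) and 2.02 ± 0.21 in PB1 (4.06-fold, adjusted p = 4.90e-07). At +Pi it was -3.0 ± 0.21 in Dular (roots 7.98-fold lower, adjusted p = 2.93e-09) and -2.81 ± 0.21 in PB1 (7.01-fold lower, adjusted p = 7.36e-09). All 4 differences between the tissues passed, with opposite signs at −Pi and +Pi. The Dular values were smaller after quantile normalization, 0.83 at −Pi (adjusted p = 0.0271) and -1.67 at +Pi (adjusted p = 9.07e-05). Those of PB1 were smaller too, 1.41 at −Pi (adjusted p = 0.000517) and -2.59 at +Pi (adjusted p = 5.17e-07). Between root and shoot, 29.5% of all probe sets passed in Dular and 30.6% in PB1 at −Pi, and 56.3% in Dular and 29.7% in PB1 at +Pi, so that a difference between the tissues was common in itself. Set directly against each other, the Pi response of roots exceeded that of shoots by 4.25 ± 0.30 in Dular (adjusted p = 6.16e-08) and by 4.83 ± 0.30 in PB1 (adjusted p = 3.72e-08), a test that 8.59% of probe sets passed in Dular and 5.23% in PB1. After quantile normalization the excess was 2.50 in Dular and 4.0 in PB1 and passed in both, so its size depends on the scaling, more so in Dular.

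Of the 4 comparisons of Dular with PB1, that in shoots at −Pi passed the test for IPS1. There Dular stood 0.98 ± 0.21 above PB1 (1.97-fold, just short of 2-fold, adjusted p = 0.00197), with the lowest Dular array at 2.75 and the highest PB1 array at 2.50. Of all probe sets, 24% passed that comparison. Without the most scattered PB1 shoot −Pi array (replicate 2) the difference was 1.10 (adjusted p = 0.00188). It was 0.98 with an adjusted p of 0.0706 when limma was fitted to the 2 groups compared alone.

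At +Pi in shoots the difference was 0.56 ± 0.21 (adjusted p = 0.0765), where 22.4% of probe sets passed. In roots it was 0.21 ± 0.21 at −Pi (adjusted p = 0.621, 28.9% of probe sets passed) and 0.37 ± 0.21 at +Pi (adjusted p = 0.143, 62.2% passed). The root +Pi arrays of the genotypes did not overlap, the lowest Dular array being at -5.69 and the highest PB1 array at -5.74, but the gap was small beside the SE. After quantile normalization the difference in roots was 0.75 at −Pi (adjusted p = 0.0537) and 1.64 at +Pi, which passed (adjusted p = 0.000155). The rise of IPS1 itself was not found to differ between the genotypes. The Dular minus PB1 difference in the response was -0.16 ± 0.30 in roots (adjusted p = 0.724) and 0.42 ± 0.30 in shoots (adjusted p = 0.686), in tests passed by 11.7% and 3.27% of probe sets.

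Ordered by their means, the groups ran from Dular root −Pi and PB1 root −Pi, whose arrays overlapped, through Dular shoot −Pi and PB1 shoot −Pi to Dular shoot +Pi and PB1 shoot +Pi, whose arrays overlapped too, and ended with Dular root +Pi and PB1 root +Pi. The 24 arrays spanned 10.6 units, more than 99.6% of all probe sets did.

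The array carries another probe set with the same cluster number as that of IPS1, which neither the platform annotation nor the gene table pairs with a gene, so that it is not counted as IPS1 here. It rose at −Pi in the 4 comparisons as well, in roots by 3.60 ± 0.30 in Dular and 4.62 ± 0.30 in PB1, and in shoots by 5.33 ± 0.30 in Dular and 2.69 ± 0.30 in PB1 (adjusted p of at most 3.52e-05 in each). Its order of the groups differed from that of IPS1. At −Pi it read 3.66, 4.46 and 4.48 in Dular shoots, against 0.90, 1.73 and 1.02 in PB1 shoots. The Pi response of Dular shoots exceeded that of PB1 shoots by 2.63 ± 0.42 (adjusted p = 0.0021), and the root minus shoot difference in response had opposite signs in Dular (-1.72 ± 0.42, adjusted p = 0.015) and PB1 (1.92 ± 0.42, adjusted p = 0.0114). Its 12 +Pi arrays lay between -1.504 and -0.90, with SDs of 0.01 in 3 of the 4 +Pi groups.

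PHR1 varied little beside IPS1. Its span over the 24 arrays was 0.737, more than that of 47.3% of probe sets, and no comparison reached 2-fold. PHR1 fell at −Pi in PB1 roots, by the test, and in none of the other 3 Pi comparisons. In PB1 roots its level was -0.20, -0.14 and -0.37 at −Pi, against 0.27, 0.18 and 0.10 at +Pi. In Dular roots it was 0.17, 0.10 and 0.05 at −Pi, against 0.36, 0.37 and 0.17 at +Pi. The −Pi and +Pi arrays did not overlap in either root, though in Dular the gap between the nearest arrays was under 0.01. In Dular shoots PHR1 was at 0.16, -0.13 and -0.03 at −Pi, against 0.00, 0.04 and -0.01 at +Pi. In PB1 shoots it was at -0.35, -0.28 and -0.32 at −Pi, against -0.11, -0.27 and 0.00 at +Pi. Dular shoot arrays overlapped fully, and PB1 shoot arrays were parted only by the third decimal between the highest −Pi and the lowest +Pi array.

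The −Pi minus +Pi difference of PHR1 was -0.42 ± 0.08 in PB1 roots (1.34-fold lower, adjusted p = 0.00125) and -0.19 ± 0.08 in Dular roots (adjusted p = 0.119). It was -0.01 ± 0.08 in Dular shoots (adjusted p = 0.969) and -0.19 ± 0.08 in PB1 shoots (adjusted p = 0.237). Of these, the difference in PB1 roots alone passed. The genotypes' responses were not found to differ, at 0.23 ± 0.11 for Dular minus PB1 in roots (adjusted p = 0.164) and 0.18 ± 0.11 in shoots (adjusted p = 0.581), so the fall in PB1 roots cannot be called particular to PB1. In roots a fall passed the test for 9.54% of probe sets in Dular and 9.82% in PB1, and in shoots for 3.81% in Dular and 2.93% in PB1.

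Dular held more PHR1 transcript than PB1 at −Pi. In roots at −Pi the difference was 0.34 ± 0.08 (1.27-fold, adjusted p = 0.0027) and in shoots at −Pi 0.32 ± 0.08 (1.25-fold, adjusted p = 0.00562), and the arrays of the genotypes did not overlap in either tissue. At +Pi the differences were 0.11 ± 0.08 in roots (adjusted p = 0.232) and 0.14 ± 0.08 in shoots (adjusted p = 0.315), with overlapping arrays. The same comparisons were passed by 28.9% of all probe sets in roots and 24% in shoots at −Pi, so a difference of this kind was common. Both lost their call after quantile normalization of the arrays (0.22, adjusted p = 0.106 in roots and 0.22, adjusted p = 0.122 in shoots), and the shoot difference also when only its 2 groups were fitted (adjusted p = 0.0671).

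PHR1 was higher in roots than in shoots at +Pi, by 0.29 ± 0.08 in Dular (1.22-fold, adjusted p = 0.00766) and 0.31 ± 0.08 in PB1 (1.24-fold, adjusted p = 0.0051), with no overlap of the arrays. After quantile normalization these were 0.22 (adjusted p = 0.09) and 0.26 (adjusted p = 0.0523), so these calls depend on the scaling of the arrays. The call in PB1 was also lost when only the groups compared were fitted. Of all probe sets, 56.3% passed this comparison at +Pi in Dular and 29.7% in PB1, so a difference of this kind was common. At −Pi the root minus shoot differences were 0.10 ± 0.08 in Dular (adjusted p = 0.50) and 0.08 ± 0.08 in PB1 (adjusted p = 0.654). The Pi response of roots minus that of shoots was -0.19 ± 0.11 in Dular (adjusted p = 0.236) and -0.23 ± 0.11 in PB1 (adjusted p = 0.371). By mean level the groups were ordered Dular root +Pi, PB1 root +Pi, Dular root −Pi, Dular shoot +Pi, Dular shoot −Pi, PB1 shoot +Pi, PB1 root −Pi and PB1 shoot −Pi, and of neighbours in this order only Dular root −Pi and Dular shoot +Pi did not overlap.

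PHR2, the better studied of the PHR regulators in rice, fell at −Pi in roots of both genotypes. In Dular roots its level was -0.19, -0.16 and -0.21 at −Pi, against 0.21, 0.32 and 0.22 at +Pi. In PB1 roots it was -0.23, -0.31 and -0.21 at −Pi, against 0.12, 0.04 and 0.04 at +Pi. All root −Pi arrays were below all root +Pi arrays, and replicates lay close together. In Dular shoots PHR2 was at 0.12, -0.05 and -0.06 at −Pi, against -0.03, 0.27 and 0.21 at +Pi. In PB1 shoots it was at -0.06, 0.09 and -0.04 at −Pi, against 0.05, -0.02 and 0.02 at +Pi. Shoot −Pi and +Pi arrays overlapped in both genotypes, and the Dular shoot +Pi group held 1 array, replicate 1, well below the other 2.

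**Figure D2:**
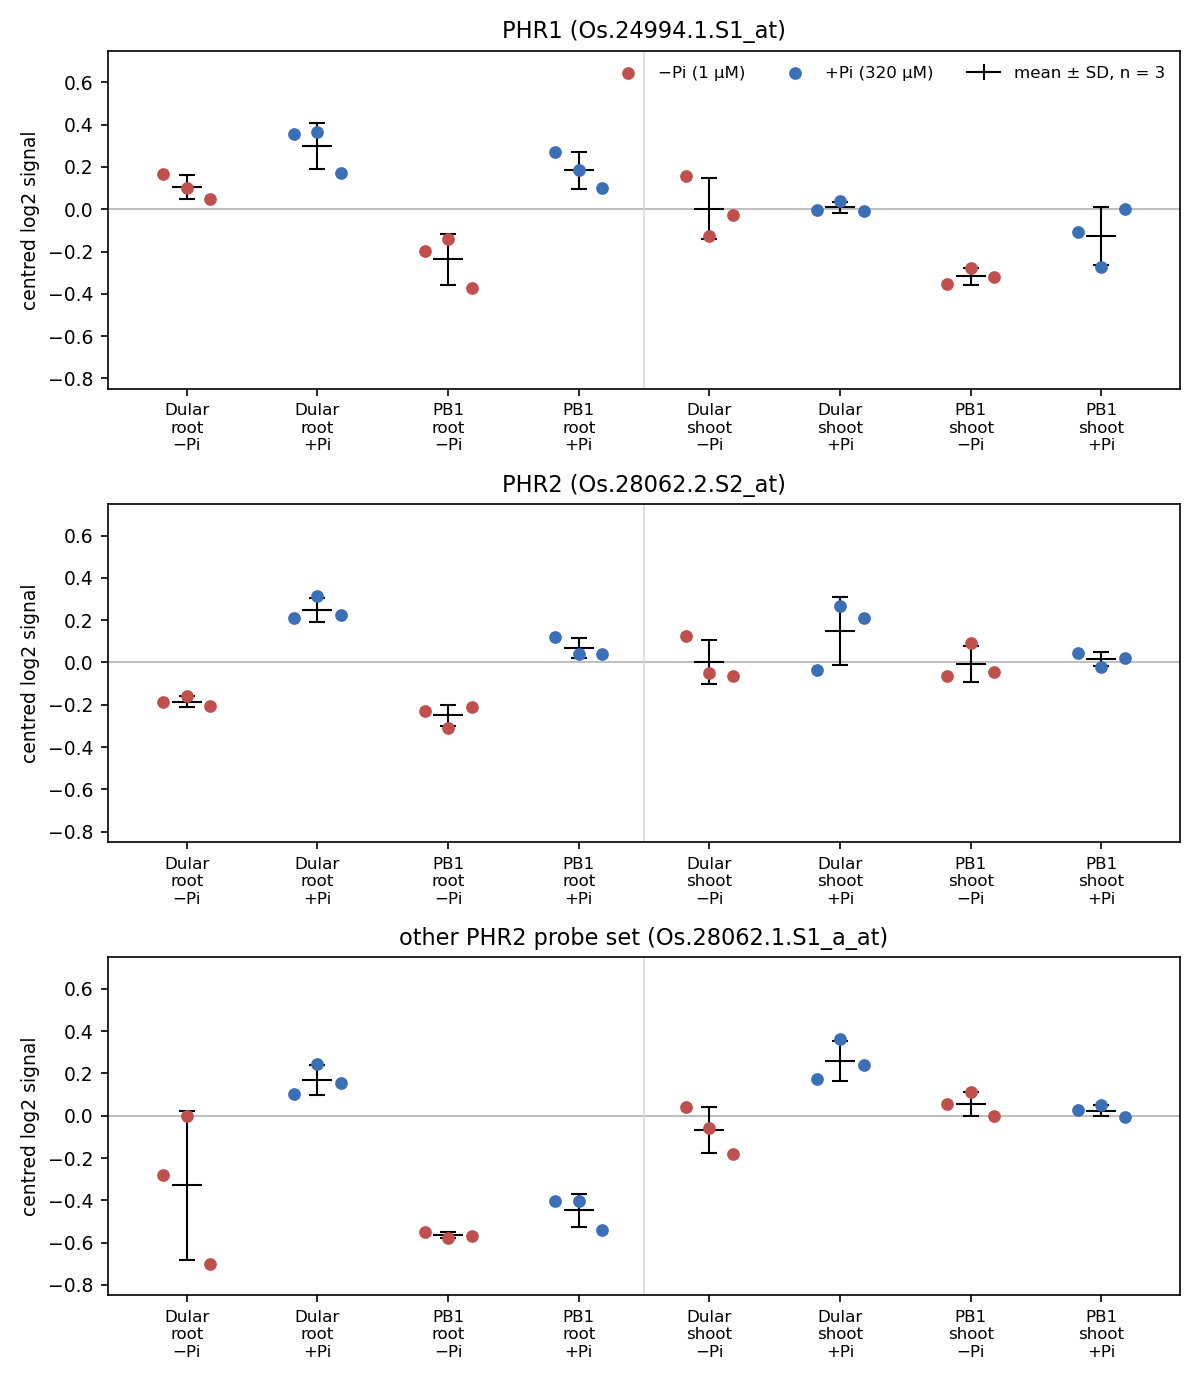
Centred log2 signal of PHR1, PHR2 and the other probe set paired with PHR2 in each of the 24 arrays (points), with the mean and SD of each group of 3 (bars), on a common scale. PHR2 is below 0 in the 6 root −Pi arrays and above 0 in the 6 root +Pi arrays, and the other probe set spreads from -0.70 to -0.00088 in Dular roots at −Pi.

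The −Pi minus +Pi difference of PHR2 was -0.43 ± 0.07 in Dular roots (1.35-fold lower, adjusted p = 8.94e-05) and -0.32 ± 0.07 in PB1 roots (1.25-fold lower, adjusted p = 0.00251). It was -0.15 ± 0.07 in Dular shoots (adjusted p = 0.148) and -0.02 ± 0.07 in PB1 shoots (adjusted p = 0.887). Both root differences passed and neither shoot difference did. Without the low Dular shoot +Pi array (replicate 1) the Dular shoot difference was -0.24 and passed (adjusted p = 0.0148). The response of Dular minus that of PB1 was -0.12 ± 0.09 in roots (adjusted p = 0.358) and -0.12 ± 0.09 in shoots (adjusted p = 0.706). The response of roots minus that of shoots was -0.29 ± 0.09 in Dular (adjusted p = 0.064) and -0.30 ± 0.09 in PB1 (adjusted p = 0.0816), short of the threshold in each genotype. Over both genotypes together, in the term of the model that compares the Pi response of the tissues, it was -0.29 ± 0.07 and passed (adjusted p = 0.00718), whereas with the other probe set paired with PHR2 it was -0.16 ± 0.11 and did not (adjusted p = 0.438).

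By its named probe set, PHR2 was lower in roots than in shoots at −Pi, whereas no difference between the tissues passed at +Pi. The root minus shoot difference at −Pi was -0.19 ± 0.07 in Dular (adjusted p = 0.0386) and -0.24 ± 0.07 in PB1 (adjusted p = 0.00702), with no overlap of the arrays. At +Pi it was 0.10 ± 0.07 in Dular (adjusted p = 0.192) and 0.05 ± 0.07 in PB1 (adjusted p = 0.643). The call in Dular at −Pi was lost in 4 of the 6 fits that left out 1 array (adjusted p up to 0.228, without Dular shoot −Pi replicate 1). It was also lost with array weights (-0.14, adjusted p = 0.0665), in the fit to Dular arrays alone (adjusted p = 0.125) and in that to the 2 groups compared (adjusted p = 0.0781), so that this difference is weakly held. With the other probe set paired with PHR2, roots were lower in PB1 at −Pi (-0.62, adjusted p = 0.000251) and also at +Pi (-0.47, adjusted p = 0.0031). In Dular that probe set passed at neither Pi level (-0.26, adjusted p = 0.106 at −Pi). At −Pi 29.5% of all probe sets passed between root and shoot in Dular and 30.6% in PB1. The genotypes differed in PHR2 in roots at +Pi, where Dular stood 0.18 ± 0.07 above PB1 (adjusted p = 0.0239). After each array was centred on its own median this was 0.14 (adjusted p = 0.0949), and 62.2% of all probe sets passed that comparison. In the other settings the Dular minus PB1 difference was 0.07 ± 0.07 in roots at −Pi (adjusted p = 0.615), 0.01 ± 0.07 in shoots at −Pi (adjusted p = 0.975) and 0.13 ± 0.07 in shoots at +Pi (adjusted p = 0.201). The 24 arrays spanned 0.623, more than the span of 45.2% of probe sets. By mean level the groups were ordered Dular root +Pi, Dular shoot +Pi, PB1 root +Pi, PB1 shoot +Pi, Dular shoot −Pi, PB1 shoot −Pi, Dular root −Pi and PB1 root −Pi. Neighbours overlapped in this order down to PB1 shoot −Pi, below which the root −Pi groups stood apart.

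PHR2 is the member with a further probe set in the platform annotation, and the 2 probe sets differed in part. In Dular roots the other probe set read -0.28, -0.00088 and -0.70 at −Pi, against 0.10, 0.24 and 0.16 at +Pi. In PB1 roots it read -0.55, -0.58 and -0.57 at −Pi, against -0.40, -0.40 and -0.54 at +Pi. The Dular root −Pi arrays were the most scattered of its groups, while the PB1 root arrays were low at either Pi level. Its −Pi minus +Pi difference was -0.50 ± 0.11 in Dular roots (adjusted p = 0.00393) and -0.12 ± 0.11 in PB1 roots (adjusted p = 0.46), so that the fall in PB1 roots rests on the named probe set. In shoots it was -0.33 ± 0.11 in Dular (adjusted p = 0.0982) and 0.03 ± 0.11 in PB1 (adjusted p = 0.909). The Dular minus PB1 difference in roots at +Pi was 0.62 ± 0.11 (1.53-fold, adjusted p = 0.000353), larger than with the named probe set. The root minus shoot difference in PB1 at +Pi was -0.47 ± 0.11 (adjusted p = 0.0031), against 0.05 ± 0.07 with the named probe set. The other probe set passed the genotype by tissue term (0.37 ± 0.11, adjusted p = 0.0224) and the genotype by Pi term (-0.37 ± 0.11, adjusted p = 0.0432).

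**Figure D3:**
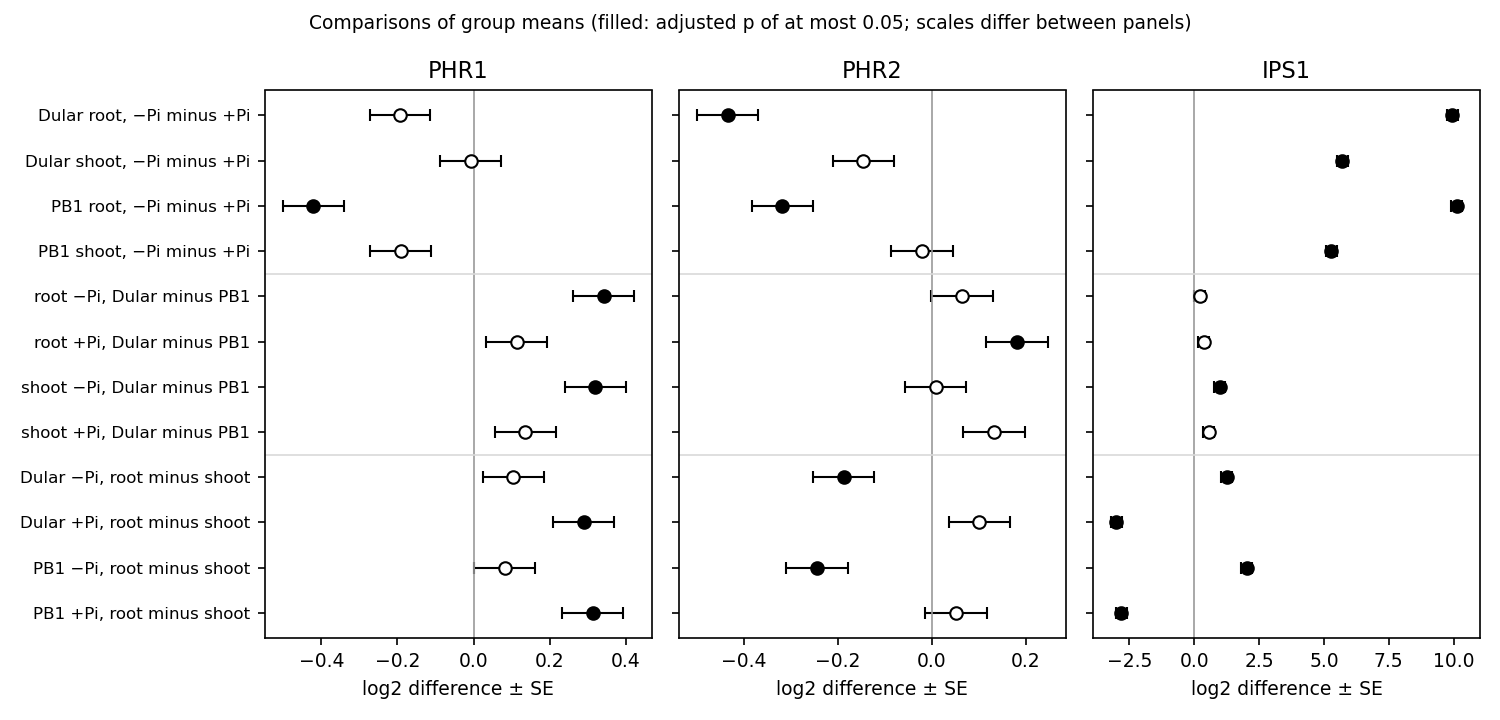
Log2 difference with its SE from limma for PHR1, PHR2 and IPS1 in 12 comparisons of group means (rows), with filled points where the test was passed and a separate scale in each panel. The point furthest from 0 for PHR1 and PHR2 is at -0.43, for PHR2 in Dular roots, and IPS1 reaches 10.11 in PB1 roots.

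A model with genotype, tissue and Pi as factors, which averages each over the others, gave a large Pi term for IPS1 and small ones for the PHR genes. The Pi term was 7.76 ± 0.11 for IPS1 (adjusted p = 1.20e-17), -0.20 ± 0.04 for PHR1 (adjusted p = 0.000909) and -0.23 ± 0.03 for PHR2 (adjusted p = 4.23e-05), and 23% of probe sets passed it. The genotype term, Dular minus PB1, was 0.53 ± 0.11 for IPS1 (adjusted p = 0.00052, and 1.11 after quantile normalization), 0.23 ± 0.04 for PHR1 (adjusted p = 0.000129) and 0.10 ± 0.03 for PHR2 (adjusted p = 0.0212), which fell short after median centring (0.08, adjusted p = 0.0503) and quantile normalization (0.03, adjusted p = 0.446). It was passed by 60.4% of probe sets, so that a pass was common for this term. The tissue term, root minus shoot, was -0.63 ± 0.11 for IPS1 (adjusted p = 6.76e-05), 0.20 ± 0.04 for PHR1 (adjusted p = 0.000457) and -0.07 ± 0.03 for PHR2 (adjusted p = 0.112), against 40.4% of probe sets. For IPS1 this mean hides the opposite signs at −Pi and +Pi given above. The tissue by Pi term passed for IPS1 (4.54 ± 0.21, adjusted p = 5.70e-10) and PHR2, and not for PHR1 (-0.21 ± 0.08, adjusted p = 0.134), against 9.38% of probe sets. With its named probe set, none of the 3 passed the genotype by tissue, genotype by Pi or genotype by tissue by Pi terms, which 26.8%, 11.7% and 3.67% of probe sets passed.

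Of 16 genes listed for Pi signalling, 9 had a probe set paired with them, and 7 were not matched. They were the 3 regulators above, the related transcription factor gene PHR3, and the genes of the inhibitors SPX1 to SPX5. In each of the 4 Pi comparisons 5 of the 9 rose, namely IPS1, SPX1, SPX2, SPX3 and SPX5, where among roots 8.75% of all probe sets rose in Dular and 5.57% in PB1, and among shoots 3.93% in Dular and 1.77% in PB1. In roots SPX5 rose by 7.97 ± 0.30 in Dular and 6.15 ± 0.30 in PB1, and in shoots by 8.58 ± 0.30 in Dular and 7.60 ± 0.30 in PB1. Its response was not found to differ between the tissues, at -0.61 ± 0.42 for roots minus shoots in Dular (adjusted p = 0.297) and -1.45 ± 0.42 in PB1 (adjusted p = 0.0585). SPX3 rose by 7.89 ± 0.43 in Dular and 7.82 ± 0.43 in PB1 roots, and by 5.94 ± 0.43 in Dular and 4.79 ± 0.43 in PB1 shoots. SPX1 rose by 2.64 to 4.34 and SPX2 by 3.12 to 4.71 over the 4 comparisons.

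Besides PHR2, no listed signalling gene fell in Dular roots, and none fell in shoots of either genotype. In PB1 roots 4 of the 9 fell, where 9.82% of all probe sets did. PHR3 was at -1.01 ± 0.31 (adjusted p = 0.0311) and SPX4, whose protein is known to retain PHR2 outside the nucleus in rice, at -0.60 ± 0.15 (adjusted p = 0.0116), beside PHR1 and PHR2. The fall of PHR2 in PB1 roots rests on its named probe set, the other being at -0.12 ± 0.11 (adjusted p = 0.46). SPX4 and SPX5 have 2 probe sets each, of which 1 was read here. In Dular roots PHR3 was at -0.42 ± 0.31 (adjusted p = 0.459) and SPX4 at 0.18 ± 0.15 (adjusted p = 0.557). The response of SPX4 differed between the genotypes in roots, by 0.77 ± 0.22 for Dular minus PB1 (adjusted p = 0.0267), whereas that of PHR3 was not found to (0.59 ± 0.43, adjusted p = 0.316). In roots this test was passed by 3 of the 9 genes, against 11.7% of all probe sets. The others were SPX5 (1.82 ± 0.42, adjusted p = 0.00866) and SPX1 (0.59 ± 0.18, adjusted p = 0.0445). In shoots SPX1 alone passed it (1.28 ± 0.18, adjusted p = 0.000916), against 3.27% of all probe sets. The median Pi response over the 9 genes was 3.51 in Dular and 3.12 in PB1 roots (against -0.01 and 0.02 over all probe sets), and 3.92 in Dular and 2.64 in PB1 shoots (against 0.03 and 0.02).

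**Figure D4:**
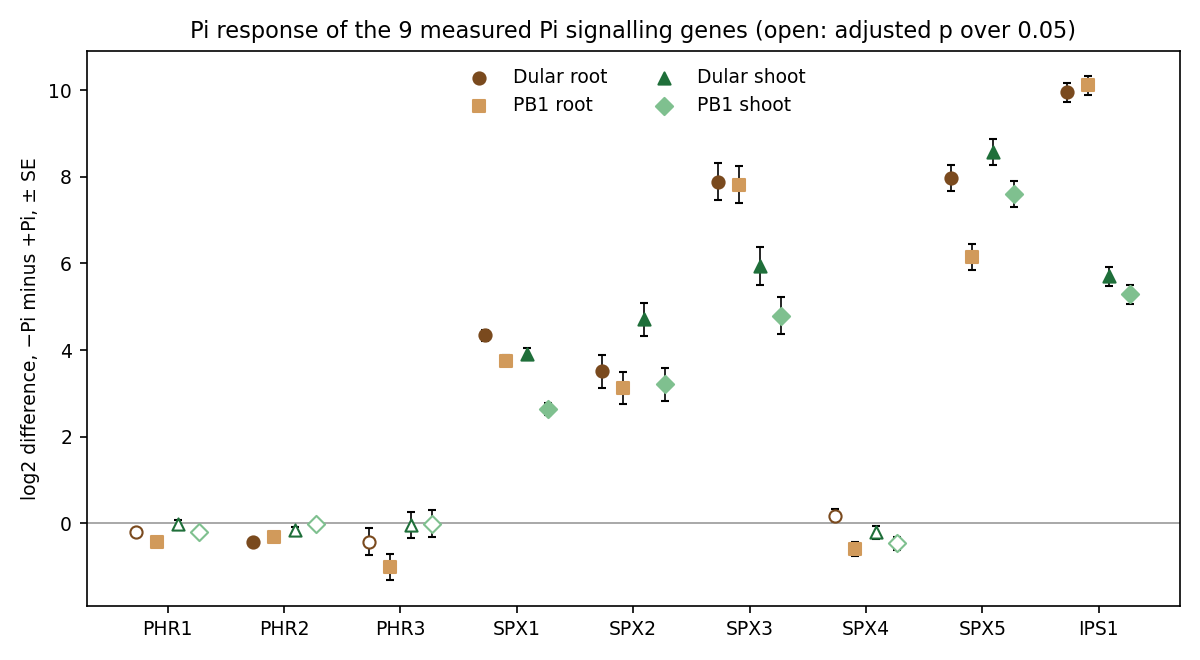
Log2 difference between −Pi and +Pi with its SE from limma for the 9 Pi signalling genes that have a probe set, by genotype and tissue, with open symbols where the test was not passed. IPS1, SPX1, SPX2, SPX3 and SPX5 lie between 2.64 and 10.11, and PHR1, PHR2, PHR3 and SPX4 between -1.01 and 0.18.

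In the comparison of the genotypes at −Pi, Dular was above PB1 for 5 of the 9 genes in roots and 6 of the 9 in shoots, and below it for none. In either direction 28.9% of all probe sets passed in roots and 24% in shoots. These shares were not split by direction. Whether passed or not, 74.9% of all probe sets in roots and 69.6% in shoots were higher in Dular at −Pi, so a lean to Dular was general. At +Pi Dular was above for 2 and below for none in roots, and above for 1 and below for 2 in shoots. There 62.2% of all probe sets passed in roots and 22.4% in shoots. IPS1 was among those higher in Dular shoots at −Pi, and PHR1 among those higher in either tissue at −Pi.

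Of 19 genes listed for Pi transport, 11 had a probe set, and those that rose at −Pi numbered 4 in Dular and 7 in PB1 among roots and 2 in Dular and 3 in PB1 among shoots, with none lower. The shares of all probe sets that rose are those given for the signalling genes. Among the 7 was the Pi transporter gene PT12, at 0.043 ± 0.013 (adjusted p = 0.0317). The exporter gene PHO1;3 rose by 5.37 in Dular and 4.99 in PB1 roots, and by 5.0 in Dular and 2.18 in PB1 shoots. The Pi transporter gene PT6 rose by 6.74 in Dular roots, 8.69 in PB1 roots and 1.47 in PB1 shoots, and was at 0.29 in Dular shoots (adjusted p = 0.619). The counts of rises do not themselves compare the genotypes. By the direct test of Dular minus PB1 response, PT6 alone of the 11 passed in roots (-1.95 ± 0.54, adjusted p = 0.0255). In shoots PHO1;3 alone did (2.82 ± 0.60, adjusted p = 0.0142). Of all probe sets 11.7% passed in roots and 3.27% in shoots. PT1, PT3, PT7, PT8, PT11 and PHO1;2 have 2 to 4 probe sets each, of which 1 was read.

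The genes whose pattern over the 24 arrays was most like that of IPS1 were found by Pearson's r among 22436 probe sets paired with exactly 1 gene. The 5 highest were LOC4342196 (r = 0.985), LOC4348516 (0.975), LOC4326052 (0.972), SPX1 (0.966) and LOC4350917 (0.958), of which the study's annotation names LOC4350917 a lipin family protein. Like IPS1, these 5 were above 0 in the mean of each −Pi group and below 0 in that of each +Pi group. The arrays fall into −Pi and +Pi groups for IPS1, so these r values mostly state that such probe sets share this split. For PHR1 the 5 highest were LOC9267563 (r = 0.927), LOC4333728 (0.910), LOC4327256 (0.903), LOC4335802 (0.902) and LOC4328120 (0.892). For PHR2 they were LOC4335793 (r = 0.905), LOC4325659 (0.890), LOC4350431 (0.879), LOC4345149 (0.873) and LOC4340716 (0.867). With r over the means of the 8 groups these genes stood at places 4 to 35 for PHR1, 4 to 22 for PHR2 and 2 to 9 for IPS1, so that the order among the most similar genes depends on how likeness is measured.

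Within groups, the deviations of the 24 arrays from their group means had an r of 0.37 between PHR1 and PHR2, 0.10 between PHR2 and IPS1 and -0.04 between PHR1 and IPS1. The deviations of the 2 PHR2 probe sets had an r of 0.44. These are descriptions over arrays that share their scaling.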

How the data were processed

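Roots and shoots of Dular and PB1 were profiled on Affymetrix rice genome arrays. The authors summarised the scanned arrays with GC-RMA in GeneSpring, and the deposited values are log2 signals, centred on each probe set's median over the 24 arrays. No uncentred signal was used here, so no filter on dim probe sets could be set. Centring does not affect differences between groups, and GC-RMA can exaggerate the fold of a probe set that is near background in 1 group.

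Of 57381 probe sets, 123 controls were left out. Arrays were grouped by title and description. Probe sets were paired with genes through the platform annotation and the RefSeq gene table (22436 probe sets with exactly 1 gene, 17905 genes). IPS1 was paired through the study's supplementary annotation. A listed gene with several probe sets was given by the first identifier, those without a suffix letter before the others. Except for PHR2, the further probe sets of such a gene were not read. Sequences are not analysed here.

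Means of the 8 groups were fitted to all 24 arrays by lmFit and eBayes of limma (3.58.1, under R 4.3.3), with Benjamini-Hochberg adjustment over 57258 probe sets for each of 16 comparisons and 7 terms of a genotype by tissue by Pi model. The residual degrees of freedom were 16 and the prior ones 0.789, so moderation was weak, and the SE assumes 1 spread per probe set in all groups. The pipeline was tested on simulated data. With 3 arrays a group, precision is limited by their number. Alternatives were median centring, quantile normalization, array weights, unmoderated tests, fits to fewer arrays, a replicate block, leaving out each array, another probe set and a 2-fold rule. Genes named are the 3 regulators, their other probe sets, genes of the lists, and the 5 most similar genes of each. The regulators, lists and comparisons were chosen with earlier results of these data known.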

Additional observations from a re-analysis of the deposited data

Results flagged for a closer look

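The Pi response of IPS1 differed between the tissues by a direct test in both genotypes. The response of roots minus that of shoots was 4.25 ± 0.30 in Dular (limma adjusted p = 6.16e-08) and 4.83 ± 0.30 in PB1 (adjusted p = 3.72e-08) on the log2 scale, with n = 3 arrays in each of the 4 groups of a contrast. In the 12 fits that left out 1 array it stayed between 4.01 and 4.42 in Dular and between 4.65 and 5.02 in PB1. After quantile normalization of the arrays it was 2.50 in Dular (adjusted p = 0.000471) and 4.0 in PB1 (adjusted p = 9.15e-06), so its size depends on the scaling, more so in Dular. The low root +Pi values and the high root −Pi values both add to it.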

How the results depend on the processing

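The −Pi to +Pi differences of IPS1 in all 4 comparisons, and those of PHR2 in Dular roots and PHR1 in PB1 roots, kept their direction and their call under every alternative run except the 2-fold rule, which PHR1 in PB1 roots (-0.42) and PHR2 in Dular roots (-0.43) and PB1 roots (-0.32) do not meet. Quantile normalization ended the call of PHR1 for Dular minus PB1 in roots (0.22) and shoots (0.22) at −Pi and for root minus shoot at +Pi in Dular (0.22) and PB1 (0.26), and of PHR2 for Dular minus PB1 in roots at +Pi (0.14) and the genotype term (0.034), and it added the PHR2 tissue term (-0.11) and IPS1 for Dular minus PB1 in roots at +Pi (1.64, against 0.37, so that this value depends on the scaling). Median centring ended the call of PHR2 for Dular minus PB1 in roots at +Pi (0.14) and for genotype (0.081). Array weights (0.196 to 4.99, 1 array of PB1 shoots at −Pi lowest) added PHR1 in Dular roots (-0.20), PHR2 in Dular shoots (-0.24), and for Dular minus PB1 in shoots at +Pi PHR1 (0.15), PHR2 (0.18) and IPS1 (0.48), and ended PHR2 root minus shoot in Dular at −Pi (-0.14). The weights came from limma's gene-by-gene method, chosen after seeing the data because its default did not converge. Arrays of the same tissue added IPS1 for Dular minus PB1 in roots at +Pi (0.37). Arrays of the same genotype added the PHR2 response of roots minus shoots in PB1 (-0.30) and ended PHR2 root minus shoot in Dular at −Pi (-0.19). Fitting only the groups compared ended PHR1 (0.32) and IPS1 (0.98) for Dular minus PB1 in shoots at −Pi, PHR2 root minus shoot in Dular at −Pi (-0.19) and PHR1 root minus shoot in PB1 at +Pi (0.31). With fewer arrays the fit has fewer degrees of freedom, and the cause of the other changes was not tested.

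With the other PHR2 probe set the fall in PB1 roots (-0.12) and root minus shoot in Dular at −Pi (-0.26) lost their call, and root minus shoot in PB1 at +Pi turned to -0.47. Leaving out 1 array at a time changed 12 calls, none of PHR1. For PHR2, Dular minus PB1 in roots at +Pi was 0.15 to 0.21 and lost its call when replicate 2 of Dular root +Pi or replicate 2 or 3 of PB1 root +Pi was left out. Root minus shoot in Dular at −Pi was -0.22 to -0.13 and lost its call without any of the Dular root −Pi arrays or Dular shoot −Pi replicate 1. The Dular shoot response was -0.24 to -0.086 and Dular minus PB1 in shoots at +Pi 0.073 to 0.22, both passing without Dular shoot +Pi replicate 1, and the response of roots minus shoots in Dular was -0.35 to -0.20, passing without Dular shoot +Pi replicate 2. For IPS1, Dular minus PB1 in shoots at +Pi was 0.37 to 0.74, passing without Dular shoot +Pi replicate 1 or PB1 shoot +Pi replicate 1.

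Replicate numbers showed little sign of pairing the arrays. Deviations of same-numbered arrays in different groups had a mean r of 0.02 (84 pairs, 14 over 0.1, at most 0.40). Those of other-numbered arrays had a mean r of -0.01 (168 pairs, 17 over 0.1). Root and shoot arrays of the same genotype, Pi level and number had a mean r of 0.003 (12 pairs), and 9 of 24 arrays matched best with an array of their own number. A replicate block ended the call of PHR2 for root minus shoot in Dular at −Pi (-0.19, adjusted p = 0.0533) and changed no other call of the 3 regulators. Unmoderated tests changed none. The values carry no measure of signal over background, and the part of the array's lower limit in the +Pi values of IPS1 was not tested.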
